A study of Mus musculus with 9 samples.

Results

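Of the 9 RNA libraries in this series, the 6 from WT and LILRB4+/+ mice were ordered by a measure of lymphocyte RNA, and the 3 with the most (lymphocyte-rich) were set against the 3 with the least (lymphocyte-poor). The measure was the summed FPKM (a read count scaled by gene length and library depth) of 5 genes. Cd3e, Cd3d and Cd3g encode chains of the CD3 complex of the T cell receptor, Cd8a encodes the co-receptor of cytotoxic T cells, and Nkg7 encodes a protein of cytotoxic granules. LILRB4+/+ replicate 1, LILRB4+/+ replicate 3 and WT replicate 1 were lymphocyte-rich, and WT replicate 2, WT replicate 3 and LILRB4+/+ replicate 2 were lymphocyte-poor. Each side therefore held libraries of both genotypes.

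All libraries were made from sorted monocytic myeloid-derived suppressor cells (M-MDSCs) of tumours grown from MC38, a mouse colon carcinoma line. The mice were WT, LILRB4+/+ or LILRB4+/+ SCG2-/-, with 3 libraries each, and the title names SCG2 as a partner of LILRB4, with IL-6 and STAT3 signalling. Neither the nature of the LILRB4 and SCG2 alleles, the sorting gate nor the mouse of origin is labelled. Since separate mice are not stated, p-values reflect only how much these samples vary, and that variation may be technical. The 3 LILRB4+/+ SCG2-/- libraries were not ordered, and their values stand beside the others for reference. Counts recovered from the FPKM values summed to 15004944 to 28070495 per library.

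M-MDSCs are immature monocyte-like cells that accumulate in tumours and restrain T cells, and they do not rearrange antigen receptor genes. T cells and B cells do: a V, sometimes a D, and a J segment are joined in each cell, and the joined exon is spliced to a constant region. Transcripts of CD3 chains, of receptor constant regions and of joined segments are therefore used as markers of T and B cells in a myeloid preparation. In bulk RNA, fewer cells of a type and less RNA per cell cannot be told apart, so the names rich and poor refer to RNA and not to counted cells.

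The summed FPKM of the 5 genes was 158 in LILRB4+/+ replicate 1, 139 in LILRB4+/+ replicate 3 and 106 in WT replicate 1. It was 25.6 in WT replicate 2, 36.8 in WT replicate 3 and 27.3 in LILRB4+/+ replicate 2. The lowest lymphocyte-rich library, WT replicate 1, thus stood 2.88-fold above the highest lymphocyte-poor one, WT replicate 3. Each of the 5 genes on its own gave the same 3 and 3 libraries, with the smallest ratio across the boundary in Cd3e (1.96) and the largest in Cd3d (3.67). The unordered LILRB4+/+ SCG2-/- libraries stood at 101, 170 and 174. The libraries were chosen by these values, so they are a description and were not tested, and neither was any other gene between the 2 sides.

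**Figure D1:**
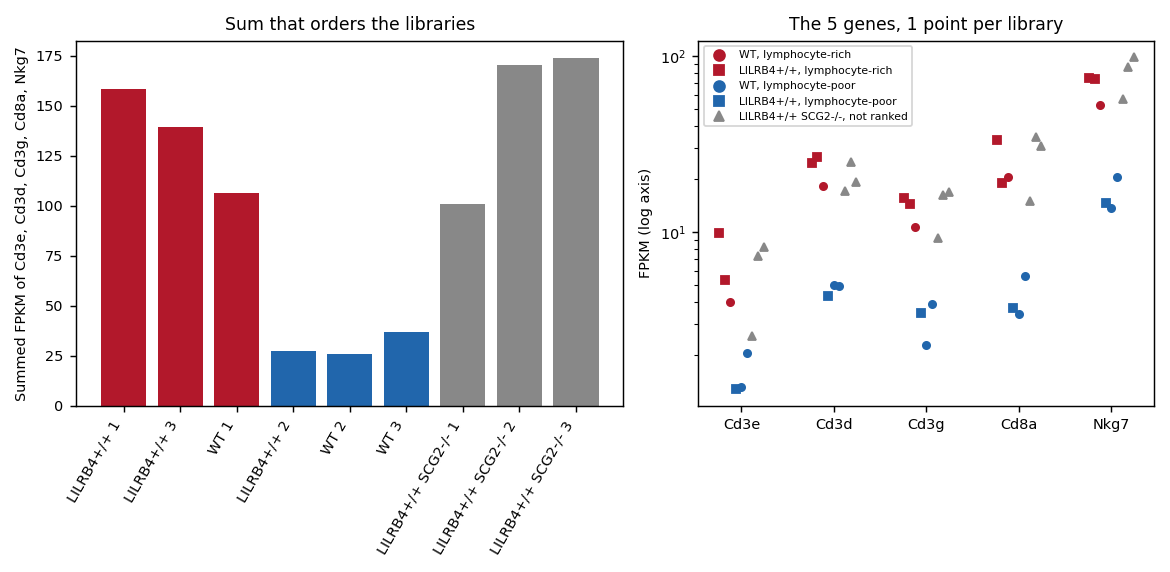
Left: summed FPKM of Cd3e, Cd3d, Cd3g, Cd8a and Nkg7 in each of the 9 libraries, bars from 0. Right: FPKM of each gene on a log axis, 1 point per library. The lymphocyte-rich libraries (red) lie between 106 and 158 and the lymphocyte-poor ones (blue) between 25.6 and 36.8.

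From here, FPKM values of a gene are listed in 1 order: LILRB4+/+ replicate 1, LILRB4+/+ replicate 3 and WT replicate 1 on the lymphocyte-rich side, then WT replicate 2, WT replicate 3 and LILRB4+/+ replicate 2 on the lymphocyte-poor side. A gene is called higher where its lowest lymphocyte-rich value lay above its highest lymphocyte-poor value, lower in the opposite case, and overlapping otherwise. The gap is the distance between those 2 values in log2(FPKM + 1), and the ratio of medians compares the median libraries of the 2 sides on the same scale. Of the 12329 genes with a mean of 1 FPKM or more, the 5 ordering genes left out, 1429 (11.6%) were higher and 1448 (11.7%) were lower in the lymphocyte-rich libraries. The counts of the 2 directions were close, but the widths were not: a gap of 1.5-fold or more was found for 306 higher and 15 lower genes, and a gap of 2-fold or more for 108 higher and 3 lower genes. The median log2 ratio of medians was 0.61 over the higher genes, -0.33 over the lower genes and -0.04 over all genes tested. Of the 12329 genes, 535 had a mean under 1 FPKM on the lymphocyte-poor side and so were kept through their lymphocyte-rich values. Another 181 had a mean under 1 FPKM on the lymphocyte-rich side and were kept through their lymphocyte-poor values. Both bear on the counts of wide gaps and on every count of genes kept in the lists, the 535 above all in the lymphocyte lists. Antigen receptor segments were among the genes with wide gaps, and 108 of the 158 measured were kept through their lymphocyte-rich values. Their part in the difference of widths was not tested. The deposited count table differs from the FPKM values for 47 genes, and 12 of these overlapped with the deposited counts where the FPKM values separated the sides (Stat3, Stat5a and Stat5b, which were higher, and Cox14, Eno1, Ifitm3, Ly6c2, Nfe2l2, Pgd, Ralb, Sirpa and Tgfbi, which were lower).

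Antigen receptor segments, which only lymphocytes rearrange, were counted first. Of the 158 receptor gene segments with a mean of 1 FPKM or more, 108 had a mean under 1 FPKM on the lymphocyte-poor side and were kept through their lymphocyte-rich values, so no share of them is read as a result. The sums over all annotated segments of a class, given next to single segments, do not depend on that filter. The 6 T cell receptor J segments with the most counts among those called higher all came from the beta chain cluster Trbj1 on chromosome 6, and their reference sequences (GENCODE M21, GRCm38, plus strand) are shown because a read over them is a read over a rearranging locus. Capitals mark TTNGG followed after 4 bases by GG, searched on the printed strand, where J segments encode the phenylalanine-glycine turn they add to a receptor chain.
Trbj1-1: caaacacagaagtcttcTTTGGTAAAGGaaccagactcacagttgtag
Trbj1-2: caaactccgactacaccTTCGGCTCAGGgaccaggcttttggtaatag
Trbj1-3: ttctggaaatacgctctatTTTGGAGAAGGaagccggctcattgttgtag
Trbj1-4: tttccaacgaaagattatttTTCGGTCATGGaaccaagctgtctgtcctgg
Trbj1-5: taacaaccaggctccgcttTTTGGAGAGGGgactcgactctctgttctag
Trbj1-6: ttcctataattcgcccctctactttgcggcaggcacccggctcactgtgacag
The pattern occurred in 5 of these 6 segments. Either it or its tryptophan form, which opens with TGGGG, occurred in 58 of the 70 annotated T cell receptor J segments (82.9%).

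Recovered counts of Trbj1-1 (chr6:41533864-41533911) were 53, 50 and 30 in the lymphocyte-rich and 12, 4 and 2 in the lymphocyte-poor libraries. Trbj1-5 (chr6:41535084-41535133) had 51, 42 and 11 counts against 8, 7 and 9. For Trbj1-2 (chr6:41534001-41534048) the counts were 37, 35 and 28 against 0, 14 and 0. These segments are short and each rests on few counts. WT replicate 1 was the lowest lymphocyte-rich library for all 3.

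All T cell receptor V segments together, which carry most of the antigen contact, had 1157, 1248 and 514 recovered counts in the lymphocyte-rich libraries and 150, 229 and 163 in the lymphocyte-poor ones. Of the 144 V segments in the table, 85, 90 and 63 had at least 1 count on the lymphocyte-rich side and 38, 44 and 32 on the other. The segment with the most counts held 9.16% of the V counts in LILRB4+/+ replicate 1 (Trbv16), 7.37% in LILRB4+/+ replicate 3 (Trbv12-2) and 12.6% in WT replicate 1 (Trbv12-2). The V counts were thus spread over many segments in each library. Constant genes gave 319, 269 and 156 CPM (counts scaled to library size) against 49.0, 57.0 and 37.3.

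Immunoglobulin segments, the B cell counterparts, showed a wider step. V segments had 5467, 6682 and 5821 recovered counts in the lymphocyte-rich libraries and 519, 837 and 274 in the lymphocyte-poor ones. Constant genes had 1405, 1220 and 1275 CPM against 133, 212 and 68.1, with 520, 493 and 1497 in the LILRB4+/+ SCG2-/- libraries. WT replicate 1, the lowest lymphocyte-rich library by the ordering genes, was level with the other lymphocyte-rich ones here.

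The V segments with the most counts were Igkv14-126 and Ighv11-2, a light and a heavy chain segment known to be paired in B-1 cells that bind phosphatidylcholine. Their V exons (GENCODE M21, GRCm38; Igkv14-126 at chr6:67896345-67896642 on the plus strand, the first 300 bases of Ighv11-2 at chr12:114048248-114048547 on the minus strand) are shown because they had more counts than any other V segment called higher.
Igkv14-126: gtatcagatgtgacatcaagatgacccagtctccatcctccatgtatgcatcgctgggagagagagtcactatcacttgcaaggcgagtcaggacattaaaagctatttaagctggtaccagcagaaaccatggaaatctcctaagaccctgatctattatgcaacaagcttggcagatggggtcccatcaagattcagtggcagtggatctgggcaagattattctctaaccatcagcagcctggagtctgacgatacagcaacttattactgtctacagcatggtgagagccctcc
Ighv11-2: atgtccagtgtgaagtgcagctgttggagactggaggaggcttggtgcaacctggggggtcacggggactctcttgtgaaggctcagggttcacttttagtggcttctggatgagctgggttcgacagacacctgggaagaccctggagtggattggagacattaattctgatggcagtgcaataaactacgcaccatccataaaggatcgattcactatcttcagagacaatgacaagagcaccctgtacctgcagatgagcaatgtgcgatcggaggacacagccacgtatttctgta
Igkv14-126 had 531, 1046 and 668 recovered counts in the lymphocyte-rich libraries and 81, 116 and 0 in the lymphocyte-poor ones. Ighv11-2 had 446, 630 and 341 against 43, 86 and 1. Igkv14-126 held the most V counts of all segments in 5 of the 6 libraries, between 9.71% and 15.7% of them, and had 0 in LILRB4+/+ replicate 2, where Igkv9-124 led with 34 of 274. A count of 0 allows up to 3 counts, for counting error only. Other segments differed from library to library: Igkv1-117 had 449, 291 and 109 counts on the lymphocyte-rich side, Igkv10-96 had 122, 54 and 490 and Iglv1 had 157, 162 and 477. Near-identical V segments can share reads, so counts of single segments are uncertain.

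**Figure D2:**
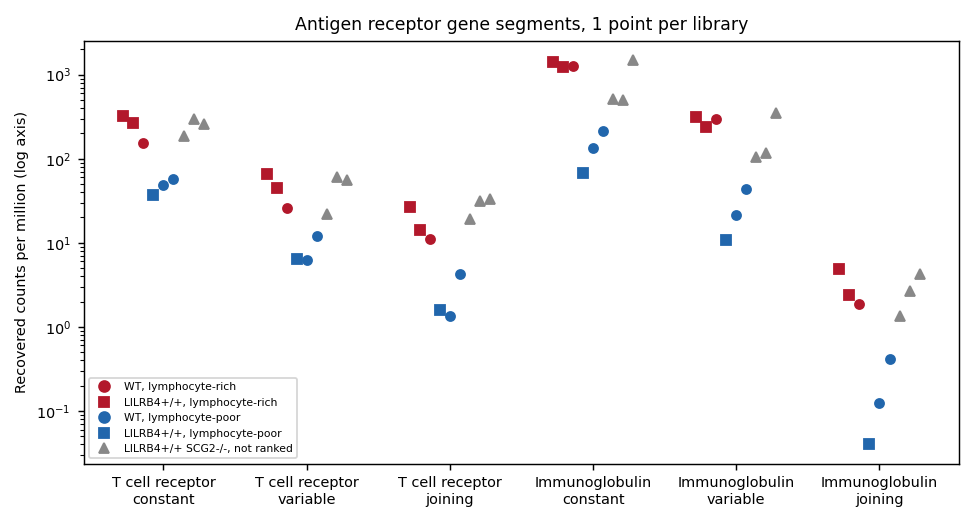
Recovered CPM of T cell receptor and immunoglobulin constant, variable and joining gene segments, summed over each class, on a log axis with 1 point per library. In all 6 classes the red lymphocyte-rich points lie above the blue lymphocyte-poor ones, and immunoglobulin constant genes reach 1405 against at most 212.

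The libraries were ordered by CD3 chains, so lists of T cell genes follow the order in part by construction. Their shares are given as a description. The T cell receptor complex and its signalling genes came first. Of 25 genes 23 had a mean of 1 FPKM or more, 22 were higher and none was lower (all genes: 11.6% higher), with 6 of the 23 under a mean of 1 FPKM on the lymphocyte-poor side. Their median log2 ratio of medians was 2.04, and their summed level was 427 to 981 FPKM in the lymphocyte-rich libraries and 169 to 199.9 in the lymphocyte-poor ones. Lck, the kinase that starts signalling from the receptor, stood at 42.4, 34.1 and 24.8 FPKM against 4.98, 6.92 and 5.44, with 22.1, 39.1 and 33.6 in the LILRB4+/+ SCG2-/- libraries. Trac, the constant gene of the alpha chain, stood at 120.2, 98.1 and 47.02 FPKM against 18.4, 15.9 and 12.2. For both genes LILRB4+/+ replicate 1 was the highest of the 6 libraries and the sides did not overlap. Lcp2, an adaptor that myeloid cells also use, was the exception at 45.3, 45.9 and 21.5 against 31.2, 21.6 and 45.2, and Themis and Sh2d1a had a mean under 1 FPKM.

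Genes that tell T cell subsets apart were higher for 15 of 17 (all genes: 11.6%), with a median log2 ratio of 1.62. Of the 17, 4 had a lymphocyte-poor mean under 1 FPKM. Cd8b1, the second chain of the CD8 co-receptor, stood at 28.5, 21.6 and 18.8 FPKM against 3.98, 5.54 and 4.52. Cd4, the co-receptor of helper T cells, stood at 4.65, 3.48 and 1.64 against 0.949, 1.603 and 0.898, a low level that also occurs in some myeloid cells. The ratio of Cd8b1 to Cd4 was 6.126, 6.1998 and 11.47 in the lymphocyte-rich libraries and 4.20, 3.45 and 5.03 in the lymphocyte-poor ones, so Cd8b1 was the more abundant in each. Tbx21, the transcription factor T-bet of cytotoxic and helper 1 cells, stood at 15.9, 14.2 and 8.41 against 1.604, 3.38 and 1.52. Foxp3, which defines regulatory T cells, overlapped at 5.86, 2.41 and 0.655 against 1.05, 1.49 and 1.204, with WT replicate 1 below all 3 lymphocyte-poor libraries.

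Natural killer cell genes were higher for 13 of 14 (all genes: 11.6%), and 6 of the 14 had a lymphocyte-poor mean under 1 FPKM. Xcl1, a chemokine of natural killer and CD8 T cells that attracts cross-presenting dendritic cells, stood at 80.6, 108 and 46.7 FPKM against 10.3, 13.3 and 6.76. Ncr1, the receptor NKp46 and a marker of natural killer cells, was low throughout, at 1.896, 1.59 and 1.998 against 0.702, 0.599 and 0.356. Klra4, one of a family of near-identical receptor genes, overlapped at 12.8, 25.1 and 24.6 against 35.2, 28.995 and 18.5.

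Cytotoxic effector genes were higher for 13 of 14 as well (all genes: 11.6%), and 1 of the 14 had a lymphocyte-poor mean under 1 FPKM. Gzmb, the granule protease granzyme B, stood at 79.7, 66.5 and 76.7 FPKM against 22.3, 24.1 and 18.1, and Prf1, the pore-forming perforin, at 12.7, 10.7 and 11.7 against 1.802, 4.95 and 3.097. Gzmc was the most abundant granzyme named, at 230.2, 383 and 287 against 75.8, 94.7 and 71.6, with 464, 382 and 581 in the LILRB4+/+ SCG2-/- libraries. WT replicate 1 was not the lowest lymphocyte-rich library for any of these 3, unlike for Lck and Xcl1. Granzyme genes are close copies of one another, and the counting could split their reads. Srgn, the granule proteoglycan serglycin that myeloid cells also make, overlapped at 944, 1014 and 522 against 1041, 577 and 1061.

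Receptors linked with exhausted or co-stimulated T cells were higher for 10 of 13 (all genes: 11.6%), and 2 of the 13 had a lymphocyte-poor mean under 1 FPKM. Pdcd1, the inhibitory receptor PD-1, stood at 55.3, 35.02 and 43.3 FPKM against 7.001, 13.7 and 8.34, and Tigit, another inhibitory receptor, at 90.04, 49.5 and 26.6 against 10.7, 16.7 and 10.3. Havcr2 (TIM-3) and Entpd1 (CD39), which myeloid cells carry too, overlapped at 76.8, 47.5 and 35.4 against 48.98, 53.2 and 75.7 and at 17.6, 14.5 and 9.02 against 21.1, 17.5 and 24.2. LILRB4+/+ replicate 2, the lymphocyte-poor library of that genotype, was the highest of the 6 for Entpd1.

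Lymphocyte cytokines and their receptors were higher for 10 of 13 (all genes: 11.6%), and 1 of the 13 had a lymphocyte-poor mean under 1 FPKM. Ifng, the interferon of T and natural killer cells, stood at 21.5, 20.2 and 10.8 FPKM against 2.22, 3.15 and 2.93. Il2rb, the beta chain of the interleukin 2 receptor, stood at 224, 131 and 83.2 against 19.04, 34.4 and 22.6. Il2, Il17a, Il21 and Il13 had a mean under 1 FPKM. Il2rg, the receptor chain shared by several interleukins, overlapped, as did Il12rb1.

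All 6 measured B cell and plasma cell genes of 14 were higher (all genes: 11.6%), with a median log2 ratio of 2.43. Of the 6, 3 had a lymphocyte-poor mean under 1 FPKM. Igkc, the constant gene of the kappa light chain (chr6:70726435-70726966), stood at 649.5, 678 and 530.2 FPKM against 62.4, 91.9 and 34.3, with 276, 205 and 576 in the LILRB4+/+ SCG2-/- libraries. Ighm, the constant gene of IgM (chr12:113418558-113422730), stood at 385, 368 and 269 against 36.1, 53.2 and 13.04. Jchain, which links secreted antibody chains, stood at 26.98, 29.1 and 20.9 against 2.51, 4.23 and 1.97. Mzb1, a chaperone of antibody-secreting cells, stood at 4.77, 5.39 and 4.17 against 0.505, 0.591 and 0.605. Genes of the B cell surface were far lower: Cd79a, a signalling chain of the B cell receptor, stood at 2.05, 3.27 and 0.992 against 0.371, 0.4002 and 0.809. Ms4a1, the surface protein CD20, and Pax5, a transcription factor of B cells, had a mean under 1 FPKM. B cell and T cell genes did not keep 1 ratio: Ighm to Cd3e was 39.0, 69.5 and 67.1 in the lymphocyte-rich libraries and 27.4, 26.0 and 10.2 in the lymphocyte-poor ones.

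**Figure D3:**
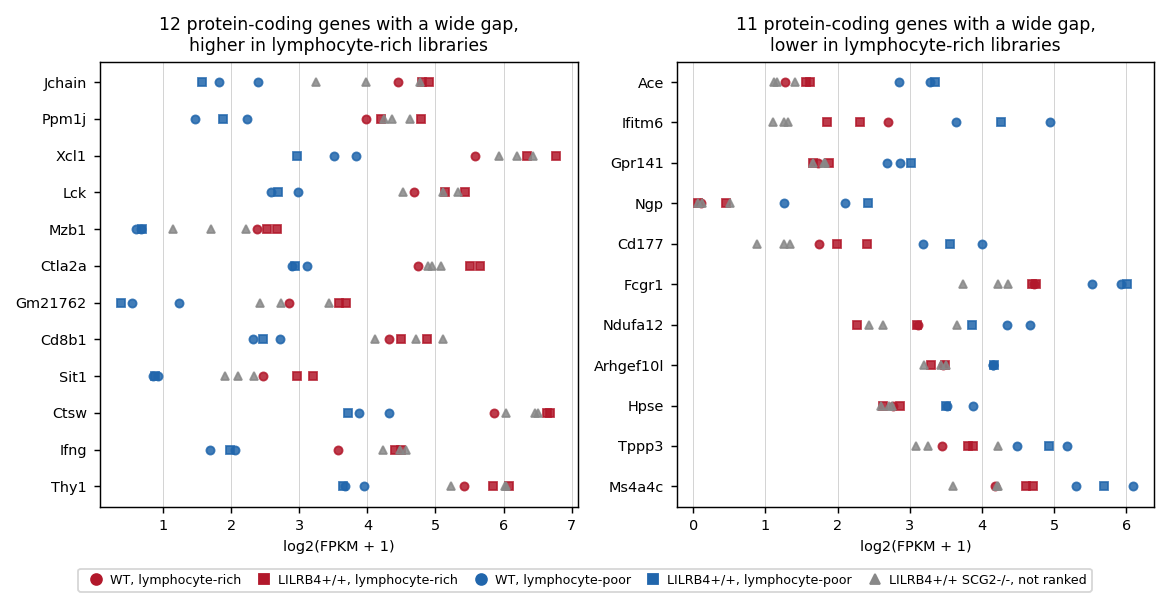
Level in log2(FPKM + 1) of the 12 protein-coding genes with the widest gap on the higher side (left) and of 11 of the 12 on the lower side (right), 1 point per library. In both panels the red and blue points do not overlap, which is how the genes were chosen; the gap runs from 1.46 (Thy1) to 2.07 (Jchain) on the left and from -0.59 (Ms4a4c) to -1.24 (Ace) on the right.

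The 12 protein-coding genes with the widest gap on the higher side were Jchain, Ppm1j, Xcl1, Lck, Mzb1, Ctla2a, Gm21762, Cd8b1, Sit1, Ctsw, Ifng and Thy1. Ppm1j, a protein phosphatase, was outside the lists and stood at 26.7, 17.4 and 14.8 FPKM against 1.76, 3.696 and 2.67. Ctla2a, a cysteine protease inhibitor first found in activated T cells, stood at 44.6, 49.1 and 25.9 against 7.67, 6.38 and 6.67. Sit1, an adaptor that tunes T cell receptor signals, stood at 8.15, 6.77 and 4.51 against 0.791, 0.885 and 0.834, and Ctsw, a protease of cytotoxic lymphocytes, at 102, 98.9 and 57.1 against 13.7, 18.9 and 12.1. Thy1, a surface protein of mouse T cells that fibroblasts also carry, stood at 66.7, 56.2 and 41.6 against 11.8, 14.5 and 11.4. WT replicate 1 was the lowest lymphocyte-rich library for all 12.

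Of the 12 on the lower side, 11 were Ace, Ifitm6, Gpr141, Ngp, Cd177, Fcgr1, Ndufa12, Arhgef10l, Hpse, Tppp3 and Ms4a4c. Ace, the peptidase that makes angiotensin II and is carried by some monocytes (chr11:105967945-105989964), stood at 2.07, 1.96 and 1.41 FPKM in the lymphocyte-rich libraries and 8.73, 6.24 and 9.21 in the lymphocyte-poor ones. It was 1.23, 1.67 and 1.16 in the LILRB4+/+ SCG2-/- libraries, near the lymphocyte-rich values. Fcgr1, the high-affinity IgG receptor CD64, stood at 25.9, 24.9 and 25.3 against 59.6, 44.8 and 63.5, so the lymphocyte-rich libraries lay within 1 FPKM of each other. Ifitm6, a membrane protein of immature myeloid cells, stood at 2.62, 3.97 and 5.51 against 29.6, 11.5 and 18.3. Of 9 measured neutrophil markers 1 was lower (11.1%, beside 11.7% of all genes), which was Ngp, and S100a8, S100a9 and Retnlg overlapped. Ngp had a mean under 1 FPKM on the lymphocyte-rich side and was kept through its lymphocyte-poor values. Ngp and Cd177, another gene of neutrophils, stood at 0.0498, 0.371 and 0.0763 against 3.3000, 1.39 and 4.38 and at 2.98, 4.28 and 2.35 against 15.1, 8.09 and 10.7. Ndufa12, a subunit of mitochondrial complex I, stood at 3.8003, 7.61 and 7.64 against 24.3, 19.3 and 13.5.

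**Figure D4:**
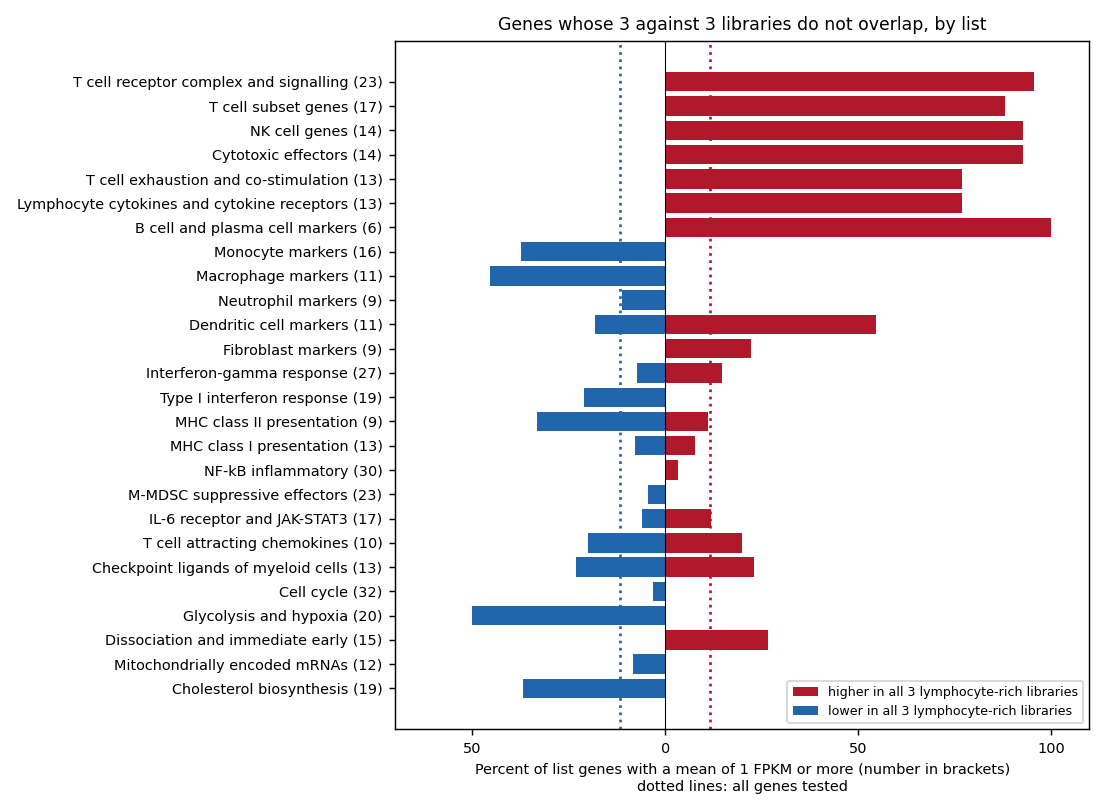
Percent of each gene list whose lymphocyte-rich and lymphocyte-poor libraries did not overlap (right, higher; left, lower), for lists with 6 or more genes at a mean of 1 FPKM; the dotted lines mark all genes tested, 11.6% and 11.7%. The 7 lymphocyte lists at the top reach 76.9% to 100%, and the largest share on the lower side is 50% for glycolysis and hypoxia. In each of these 7 lists 1 to 6 genes had a lymphocyte-poor mean under 1 FPKM and were kept through their lymphocyte-rich values. The 100% is that of 6 B cell and plasma cell genes, 3 of them kept in that way.

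Markers of the sorted cells themselves were present in all 6 libraries. Cd14, a co-receptor for bacterial lipopolysaccharide, stood at 1900.3, 2234 and 886 FPKM against 2528, 1541 and 2688, and Csf1r, the receptor for the monocyte growth factor, at 117, 98.2 and 91.8 against 138, 115 and 189.6. Of the 16 monocyte markers none was higher and 6 were lower (Ly6c2, Fcgr1, Chil3, Ms4a4c, Lyz2 and Spi1; all genes: 11.7% lower). Ly6c2, the surface protein by which mouse monocytic cells are commonly sorted, stood at 46.8, 50.8 and 36.7 against 105, 61.97 and 51.3, and it overlapped with the deposited counts. Lyz2, the lysozyme of myeloid cells, stood at 11.4, 16.6 and 11.8 against 79.1, 109 and 18.6, and at 849, 342 and 252 in the LILRB4+/+ SCG2-/- libraries. Ly6g, the defining neutrophil surface marker, was at 0 in 5 of the 6 libraries and at 0.198 FPKM in WT replicate 1.

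Of 11 macrophage markers, 5 were lower (Adgre1, C1qa, C1qb, C1qc and Ms4a7) and none was higher. This is 45.5% lower, beside 11.7% of all genes. C1qa, a chain of complement C1q, stood at 98.1, 119.7 and 117 FPKM against 215, 152 and 222, and Adgre1 (F4/80) at 23.6, 21.5 and 21.8 against 32.5, 26.3 and 52.6. Their gaps were narrow beside those of the lymphocyte genes, at -0.35 for C1qa in log2(FPKM + 1). The summed macrophage level was 711 to 824 FPKM in the lymphocyte-rich and 871 to 1391 in the lymphocyte-poor libraries. The part of these markers in other gene differences was not tested.

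Dendritic cell markers were split. Flt3, Zbtb46, Itgae, Siglech, Ccr7 and Ccl22 were higher, and Batf3 and Sirpa were lower, of 11 measured. These are 54.5% and 18.2%, beside 11.6% and 11.7% over all genes. Ccr7 is also a member of the T cell subset list. Of the 11, 2 had a lymphocyte-poor mean under 1 FPKM and were kept through their lymphocyte-rich values. The deposited table has 9717 counts of Sirpa in LILRB4+/+ replicate 1, where the FPKM values give 5717, and with that table Sirpa overlapped. Siglech, a marker of plasmacytoid dendritic cells, stood at 12.8, 11.4 and 5.82 FPKM against 0.565, 2.01 and 0.735. Ccl22, a chemokine of mature dendritic cells that attracts regulatory T cells, stood at 34.9, 33.3 and 21.2 against 10.7, 12.2 and 8.71, and Ccr7, the receptor that guides dendritic cells and T cells to lymph nodes, at 124, 117 and 68.6 against 39.6, 43.97 and 25.4. Xcr1, the receptor for Xcl1 on cross-presenting dendritic cells, overlapped at 1.63, 2.75 and 0.628 against 0.896, 0.426 and 2.03.

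Fibroblast markers were present on both sides, with a summed level of 467 to 622 FPKM in the lymphocyte-rich and 372 to 543 in the lymphocyte-poor libraries. Of 11 fibroblast markers 9 were measured and 2 were higher (Thy1 and Postn), 22.2% beside 11.6% of all genes. Thy1 is also a member of the T cell receptor list. The collagen gene Col1a1 overlapped at 60.8, 54.1 and 67.6 FPKM against 47.4, 65.01 and 33.4. Of 8 mast cell and basophil markers Kit alone reached a mean of 1 FPKM, and it was higher, at 6.22, 3.59 and 1.98 against 0.667, 1.62 and 0.681. Its lymphocyte-poor mean was under 1 FPKM, so Kit was kept through its lymphocyte-rich values. Of 9 endothelial markers Pecam1 and Cdh5 reached a mean of 1 FPKM. Cdh5, a junction protein of vessels, was higher at 3.92, 3.03 and 1.997 against 1.32, 1.73 and 1.303, while Pecam1 overlapped. Among the 8 epithelial markers Cdh1 alone did, and it overlapped.

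Myeloid programmes that interferon from T cells can drive did not follow the lymphocyte order as lists. Of 27 interferon-gamma response genes 4 were higher (Irf8, Gbp8, Socs1 and Serping1) and 2 were lower (Cxcl9 and Irgm1), which is 14.8% and 7.41% beside 11.6% and 11.7% over all genes. Cxcl9, a chemokine that attracts T cells through CXCR3, stood at 27.9, 17.6 and 21.3 FPKM against 59.1, 43.9 and 32.1, the opposite order to Ifng. Irf8, a transcription factor of monocytes and dendritic cells, stood at 59.5, 46.01 and 44.4 against 25.96, 27.2 and 25.7. Type I interferon genes were lower for 4 of 19 (Oas1a, Oas3, Zbp1 and Xaf1) and higher for none, which is 21.1% lower beside the same 11.7%.

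Antigen presentation genes were mostly overlapping. Class II genes were higher for 1 of 9 (H2-Ob, a peptide-loading regulator of B cells) and lower for 3 (H2-DMa, H2-DMb1 and Ctss). These are 11.1% and 33.3%, beside 11.6% and 11.7% over all genes. H2-DMb1, which loads peptides, stood at 88.1, 88.4 and 89.9 FPKM against 170.4, 118 and 123. Class I genes were higher for 1 of 13 (H2-Q4) and lower for 1 (Tapbp), 7.69% each.

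Checkpoint ligands of myeloid cells went both ways, with Pdcd1lg2, Icosl and Tnfsf4 higher and Lgals9, Vsir and Cd276 lower of 13. This is 23.1% each way, beside 11.6% higher and 11.7% lower over all genes. Tnfsf4, the OX40 ligand, had the widest gap of these, at 14.6, 9.84 and 4.88 FPKM against 1.896, 2.53 and 2.31. Cd274, the PD-1 ligand PD-L1, overlapped at 206, 135 and 54.9 against 86.2, 83.3 and 120.2. Of the 10 chemokines that attract T cells, Ccl5 and Ccl22 were higher and Cxcl9 and Ccl8 lower (20% each way). In this list 1 gene had a lymphocyte-rich mean under 1 FPKM. Ccl5, which T and natural killer cells also make, stood at 255, 413 and 121 against 78.1, 53.4 and 69.8.

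The inflammatory and suppressive genes of M-MDSCs overlapped almost throughout. Il12b alone was higher of 30 NF-kB genes (3.33%, beside 11.6% of all genes). Lgals9 alone was lower of 23 suppressive genes (4.35%, beside 11.7%). Overlap does not mean equal levels, as the median log2 ratio of medians was 0.95 for the NF-kB and 0.10 for the suppressive list. Over all genes it was -0.04. With LILRB4+/+ replicate 2 lymphocyte-poor and WT replicate 1 lymphocyte-rich, a gene that follows genotype overlaps by construction. Arg1, the arginase that starves T cells of arginine, stood at 415, 383 and 369.5 FPKM against 428, 328 and 733. Il1b, an inflammatory cytokine, stood at 2179.5, 2595 and 800.4 against 1839.6, 1138 and 3007. For both, LILRB4+/+ replicate 2 was the highest of the 6 libraries, and the lowest was WT replicate 3 for Arg1 and WT replicate 1 for Il1b. In the deposited count table LILRB4+/+ replicate 1 has 138311 counts of Il1b, where the FPKM values give 68311, and 26183 of Arg1, where they give 15191.

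Glycolysis genes were lower for 10 of 20 (50%, beside 11.7% of all genes). Among them was Eno1, which overlapped with the deposited counts. The list had a median log2 ratio of -0.26 against -0.04 over all genes. Pgam1, phosphoglycerate mutase, stood at 177, 179.6 and 191 FPKM against 298, 282 and 262, Ldha, lactate dehydrogenase, at 310.4, 412 and 393 against 597, 481 and 455, and Bnip3, a hypoxia-induced mitophagy receptor, at 24.4, 31.7 and 32.3 against 62.9, 54.8 and 43.8. The summed level of the list was at most 3421 FPKM in the lymphocyte-rich libraries and at least 3928 in the lymphocyte-poor ones. Cholesterol synthesis genes were lower for 7 of 19 (36.8%), with a median log2 ratio of -0.54 over the list, and 1 of the 19 had a lymphocyte-rich mean under 1 FPKM.

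Of 15 dissociation and immediate early genes 4 were higher (26.7%, beside 11.6% of all genes; Fos, Jun, Jund and Dusp1) and none was lower. Their summed level was 3569 to 5674 FPKM in the lymphocyte-rich and 3069 to 3343 in the lymphocyte-poor libraries, so the sums did not overlap. Dusp1, a phosphatase induced by stress, stood at 357, 359 and 340.1 FPKM against 242, 239 and 225. WT replicate 1 had 727 FPKM of the heat shock gene Hspa1a, against 61.0 to 162 in the other 5 libraries. Of 12 mitochondrially encoded mRNAs mt-Nd3 alone was lower (8.33%, beside 11.7% of all genes). Their summed level was 7192 to 9361 FPKM against 4918 to 14768, with the highest value in LILRB4+/+ replicate 2. Of 32 cell cycle genes Top2a alone was lower (3.1%). Overlap does not mean equal levels here either, as the median log2 ratio of medians of this list was -0.47, against -0.04 over all genes. The part of these values in the gene differences was not tested.

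Among other classes of RNA gene, 42 of 104 small nucleolar RNA genes (40.4%) and 24 of 102 miRNA genes (23.5%) were higher, with 1 lower in each. Over all genes 11.6% were higher and 11.7% lower. The libraries were made from poly-A RNA, and where the reads on these small RNA genes came from was not tested. For short genes 1 FPKM can be a few counts. How many of them were kept through their lymphocyte-rich values was not counted, so their shares are not read as a result. Processed pseudogenes, copies of spliced mRNAs, were higher for 23 of 588 (3.91%) and lower for 91 (15.5%). Antisense genes were higher for 34 of 156 (21.8%) and lower for 7 (4.49%). Whether the counting used strand is not given in the sources used here, so reads of an antisense gene and its partner cannot be told apart.

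The genes in the series title, and Lilr4b beside Lilrb4a, were read against the same order. Lilr4b (chr10:51480632-51486703) overlapped at 640.2, 450.0 and 289 FPKM against 137, 149 and 327, and its near copy Lilrb4a (chr10:51490956-51496611) overlapped at 274, 159.7 and 138 against 47.7, 73.97 and 154. For both, LILRB4+/+ replicate 2 stood above WT replicate 1, and within each genotype the lymphocyte-rich libraries stood above the lymphocyte-poor ones. Reads may be split unevenly between these copies. Il6 overlapped at 77.6, 99.2 and 20.2 against 27.2, 20.2 and 58.01. Stat3 was higher, at 101, 61.2 and 48.2 against 32.2, 37.6 and 40.7, with a narrow gap of 0.24. In the deposited count table Stat3 has 14978 counts in LILRB4+/+ replicate 2, where the FPKM values give 9195, and with that table it overlapped. Scg2 had 1 recovered count in LILRB4+/+ replicate 1, 1 in WT replicate 1 and 0 elsewhere, so it was not detectable at this depth and does not check the SCG2-/- labels.

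Since 2 of 3 LILRB4+/+ libraries and 1 of 3 WT libraries were lymphocyte-rich, the genotype comparison was made with and without the lymphocyte level. The covariate was log2 of the summed CPM of the 5 ordering genes in each library, added to an edgeR quasi-likelihood model of the deposited counts of all 9 libraries with Benjamini-Hochberg adjustment. Without it 171 of 9877 genes (1.73%) were higher and 51 (0.516%) lower in LILRB4+/+ than in WT. With it 296 (3.0%) were higher and 82 (0.830%) lower, among them 164 of the 171 and 50 of the 51. The deposited count table keeps only genes that reach a minimum count in LILRB4+/+ replicates 1 and 3. A gene below that minimum in either library was not tested, whatever its level in WT. The counts of higher and lower genes therefore cannot be weighed against each other. The fit of 15743 genes as recovered counts, given below, does not have this limit. None of the 171 or of the 51 was among the genes that separated the lymphocyte-rich from the lymphocyte-poor libraries, a count the crossing of genotypes with sides partly fixes. With the covariate 13 of the 296 and 1 of the 82 were among the higher genes of that split.

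The 2 deposited tables disagree in a way that bears on this comparison. In 56 values of 47 genes the deposited count is not the count the FPKM values give, and 41 of these lie in LILRB4+/+ replicate 1, where the deposited count was the larger in all 41 and by a multiple of 1000 in 30. Why the tables differ was not tested. With recovered counts of the same 9877 genes, the model called 178 higher, 167 of them also called with the deposited counts, and 34 lower, all of them also called. With the covariate it called 331 higher, sharing 290, and 67 lower, sharing all. Of the 47 genes, 8 were called higher with deposited and 4 with recovered counts, and 15 and 9 with the covariate. The NF-kB list had the same 14 and 18 calls with these recovered counts, and 12 and 17 when all 15743 genes were fitted.

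The counts rested on single libraries: without LILRB4+/+ replicate 2, the lymphocyte-poor library of its genotype, 541 genes were higher and 148 lower without the covariate, and 0 and 0 with it (773 and 497 at an unadjusted p under 0.05). Without WT replicate 1, the lymphocyte-rich WT library, 19 were higher and 1 lower with the covariate. Removing WT replicate 2 or WT replicate 3 left 0 calls without the covariate (945 higher and 811 lower, and 848 and 778, at an unadjusted p under 0.05), and 279 and 42, or 156 and 15, with it.

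The covariate is made of lymphocyte genes, so lists that follow those genes have smaller medians with it by construction, and the medians are given as a description. The median log2 fold change of 21 T cell receptor genes was 1.33 in LILRB4+/+ against WT without the covariate and 0.28 with it, and Lcp2 alone passed the test in each fit. The 5 genes that make up the covariate went from 0.94 to 0.02. Dendritic cell markers went from 0.78 to -0.01, with Xcr1 called in both fits, and 10 natural killer genes from 0.83 to -0.28 with none called. The median over all genes was -0.02 in both fits.

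**Figure D5:**
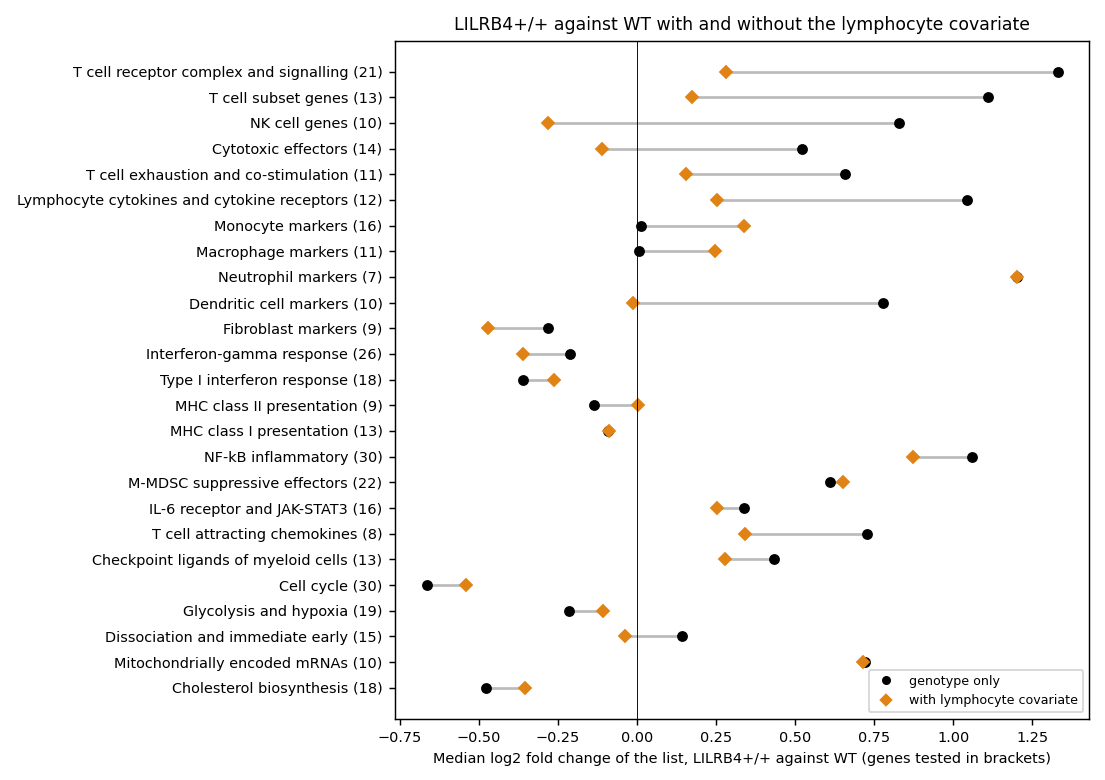
Median log2 fold change of each gene list in LILRB4+/+ against WT from edgeR, with genotype alone (black) and with the lymphocyte covariate added (orange), for lists with 5 or more genes tested. T cell receptor genes go from 1.33 to 0.28, NF-kB genes from 1.06 to 0.87 and cell cycle genes from -0.67 to -0.54. Lists that follow the lymphocyte genes shrink by construction.

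For NF-kB inflammatory genes the median log2 fold change was 1.06 without the covariate and 0.87 with it. Of 30 genes 14 were called higher without and 18 with it, beside 1.73% and 3.0% of all genes. Ptgs2, which encodes cyclooxygenase 2, stood at 1214, 1117 and 315 FPKM in the lymphocyte-rich and 394, 421 and 912 in the lymphocyte-poor libraries, and all 3 LILRB4+/+ libraries lay above all 3 WT libraries. In LILRB4+/+ against WT it rose by 1.496 on the log2 scale (SE 0.23, edgeR adjusted p = 0.0214) and by 1.43 with the covariate (SE 0.25, edgeR adjusted p = 0.0134). Cxcl2, a neutrophil-attracting chemokine, rose by 1.76 (SE 0.28, edgeR adjusted p = 0.0214) and by 1.74 with the covariate (edgeR adjusted p = 0.0126). Il6 rose by 1.57 (SE 0.25, edgeR adjusted p = 0.0224) and by 1.51 with the covariate (edgeR adjusted p = 0.0125). Tnf, another inflammatory cytokine, rose by 1.55 and by 1.48 with the covariate (edgeR adjusted p = 0.0228 and 0.0125). Il6 and Tnf differ between the deposited tables. Il6 has 4376 deposited and 6376 recovered counts in LILRB4+/+ replicate 3, and Tnf 9905 and 6905 in LILRB4+/+ replicate 1. Both passed with recovered counts too, without the covariate (edgeR adjusted p = 0.0242 and 0.0398) and with it (0.0146 and 0.0163). When 15743 genes entered the model as recovered counts, 128 (0.813%) were higher and 9 (0.0572%) lower without the covariate, and 330 (2.10%) and 50 (0.318%) with it. For these 4 genes the adjusted p reached 0.109 to 0.124 when 1 library was left out.

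Of 30 cell cycle genes 9 were lower in each fit, the same 9, beside 0.516% and 0.830% of all genes. Fits of recovered counts called 8 and 9 of them when limited to the 9877 genes, and with all 15743 genes 2 (Ccna2 and Aurka) and 6. Ccna2 encodes cyclin A2. It stood at 11.2, 13.4 and 19.3 FPKM in the lymphocyte-rich and 24.8, 24.3 and 14.6 in the lymphocyte-poor libraries, highest in the 3 WT libraries. Ccna2 fell by 0.83 (SE 0.15, edgeR adjusted p = 0.0277) and by 0.73 with the covariate (SE 0.14, edgeR adjusted p = 0.0170). Retnlg, a resistin-like gene of neutrophils and monocytes, stood at 55.3, 70.3 and 20.4 FPKM against 34.1, 15.2 and 154, with the highest value in LILRB4+/+ replicate 2. It rose by 1.97 (SE 0.40, edgeR adjusted p = 0.0406) and by 2.19 with the covariate (edgeR adjusted p = 0.00419). With recovered counts of all genes it did not pass without the covariate (edgeR adjusted p = 0.0597), and leaving out 1 library gave 1.42 to 2.37 (edgeR adjusted p up to 0.150). Socs3, which restrains STAT3 signalling, stood at 919, 913 and 381 FPKM against 381, 325 and 587. It passed without the covariate at 1.13 (edgeR adjusted p = 0.0467) and not with it at 0.98 (edgeR adjusted p = 0.0522). With recovered counts of all genes the edgeR adjusted p was 0.0574 without the covariate and 0.0484 with it, and with those of the same genes Socs3 passed in both.

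Of the near copies Lilrb4a and Lilr4b, only Lilrb4a bears the name of LILRB4. Lilr4b had a log2 fold change of 1.26 that did not pass without the covariate (SE 0.33, edgeR adjusted p = 0.0652), and it rose by 0.98 with the covariate (SE 0.20, edgeR adjusted p = 0.0238). Lilrb4a did not pass in either fit, at 1.14 without the covariate (edgeR adjusted p = 0.115) and 0.91 with it (edgeR adjusted p = 0.0547). For Stat3 neither fit passed. Its log2 fold change was 0.92 and 0.75 with the deposited counts (edgeR adjusted p = 0.0851 and 0.0824). With recovered counts it was 0.77 and 0.36 (edgeR adjusted p = 0.222 and 0.372). A difference between the fits was not itself tested for any gene.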

How the data were processed

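Poly-A RNA of sorted M-MDSCs was sequenced in 9 libraries with a kit that marks strand, per the labels' protocols. The submitters' processing notes name HISAT2 2.0.5 and featureCounts 1.5.0-p3. The build, annotation and strand setting were not given in the sources used here. Of the gene identifiers found in GENCODE M21, 98.3% had its GRCm38 coordinates. The authors deposited raw counts of 9877 genes and FPKM values of 54532 genes. Scaled by gene length and a library constant, the deposited FPKM values gave whole numbers (tolerance 0.01) for 100% of values, called recovered counts. The count table is limited to protein-coding genes that reach 100 counts in both LILRB4+/+ replicate 1 and replicate 3, which are lymphocyte-rich. The 9877 genes tested for genotype were thus selected on the LILRB4+/+ side of that comparison. The tables differed in 56 of 88893 values in 47 genes, 9 of them among the genes named by rule (Stat3, Arg1, Cd14, Il1b, Il6, Nos2, S100a8, Tnf and Sirpa), and which values were intended is not known. Deposited totals were 14501163 to 27219202, recovered totals 15004944 to 28070495. Replicate pairs shared identical counts in 0.466% of genes or fewer.

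Libraries were ordered by summed FPKM, so the sides were described without a test, for genes with a mean of 1 FPKM or more over the 6 libraries and a pseudocount of 1. Genes were named by rule: the 12 protein-coding genes with the widest gap in each direction, and from each of 31 lists the 3 members with the widest gap and the most abundant one, with the study's genes and, for genotype, up to 10 called per direction. Some members of the lists and of the widest genes are not reported here. Other list members and receptor segments were chosen after their values were seen. The members and lists were chosen with earlier results of these data known. Genotype was tested with edgeR 4.0.16 in R 4.3.3 (filterByExpr with a minimum count of 10, TMM scaling, robust quasi-likelihood fit of 9 libraries with 6 residual degrees of freedom, 5 with the covariate, Benjamini-Hochberg threshold 0.05), and with limma 3.58.1 and DESeq2 1.42.0 as alternatives, as were other filters, pseudocounts, tables and leaving out each library. The fit was tested on simulated data.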

Additional observations from a re-analysis of the deposited data

How the results depend on the processing

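Between the sides, TMM-scaled recovered counts gave counts of higher and lower genes within 1.5 times of 1429 and 1448. The deposited counts, a smaller table, gave 1348 higher and 817 lower genes of 9872. Means of at least 0.1 and 5 FPKM and no filter kept 18737, 7363 and 26950 genes. They gave 2351, 717 and 2757 higher and 1696, 999 and 1798 lower genes, so these counts rose with the number of genes kept. A gap of 1.5-fold left 306 higher and 15 lower genes, and with a pseudocount of 0.1 it left 416 and 26. Leaving out 1 library gave 1660 to 2465 higher and 1806 to 2761 lower genes, which fewer libraries favour by construction.

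For LILRB4+/+ against WT (171 higher, 51 lower), DESeq2 gave 612 and 312, limma on log2(FPKM + 1) 91 and 11, and with a pseudocount of 0.1 87 and 11. Limma without a filter gave 0 and 0 (1727 and 1426 at an unadjusted p under 0.05). Recovered counts gave 128 and 9, and WT and LILRB4+/+ libraries alone 69 and 3. The covariate gave 296 and 82, 330 and 50 on all recovered counts, and 331 and 67 on recovered counts of the same genes. The last 2 settings, and leaving out libraries with the covariate, were chosen after seeing the data. Leaving out 1 library gave 0 to 541 and 0 to 148, and with the covariate 0 to 483 and 0 to 200. With the replicate number as a block, 1 gene was higher and 0 lower (1084 and 1018 at an unadjusted p under 0.05). Deviations of same-numbered WT and LILRB4+/+ libraries from their genotype means correlated at 0.66, 0.54 and -0.45, and those of unlike number at -0.71 to 0.35. Deviations within a genotype are tied to each other, so these values cannot decide whether the numbers pair the samples. The cause of these differences was not tested. Of 110 genes named by rule with a genotype value, 27 changed sign with the covariate and 22 when 1 library was left out, 33 in all. None of the 12 that passed with or without the covariate did, but genes picked because they pass in these fits seldom change sign. Depth limits Scg2 and single receptor segments.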
